A study of Mus musculus with 18 samples.

Results

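The genes described here are 10 transcription factors of the hair matrix and its differentiating daughter cells: *Dlx1*, *Dlx2*, *Dlx3*, *Dlx4*, *Msx1*, *Msx2*, *Cux1*, *Foxn1*, *Gata3* and *Ovol1*. They were taken by symbol from a count table of 52636 genes, and each of the 10 symbols matched 1 row. The set was put together after *Dlx3* had been seen at a low level in control tumors, so the members were chosen by the levels in control tumors and every contrast with those tumors in it, the one between genotypes included, is given as a description, without a test.

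The hair matrix is the pool of dividing epithelial cells at the base of a growing hair follicle. Its cells leave the cycle and become hair shaft or inner root sheath under Wnt and BMP signals, and they are largely absent from resting follicles. *Dlx* and *Msx* genes encode homeodomain proteins, and *Dlx3* acts downstream of Wnt and BMP signals and is required for hair shaft formation. *Foxn1* encodes the forkhead factor lost in nude mice, *Gata3* a zinc finger factor of the inner root sheath and of interfollicular epidermis, *Cux1* a cut-family homeodomain factor, and *Ovol1* a zinc finger factor of differentiating epidermis.

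Epidermal cells were sorted from the back skin of *Zfp36*fl/fl mice (fl/fl) and of *Zfp36*ΔEP mice (ΔEP), littermates on a C57BL/6 background. ΔEP mice, which the labels call ΔK14, also carry both floxed alleles and lose *Zfp36*, the gene for the mRNA decay factor TTP, in cells that express K14-Cre, a transgene active in basal keratinocytes and hair follicle epithelium. Mice were 8 weeks old at the start and were either mock-treated or given the carcinogen DMBA followed by repeated TPA, and cells came from mock-treated skin, from treated skin beside the papillomas (treated skin) or from papillomas (tumors). Sorted cells were EpCAM+ and negative for CD45, CD140a and CD31, although the labels name whole skin as the source, and nothing in the labels says which libraries came from the same mouse.

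The 17 libraries used, 3 in each group and 2 in the ΔEP mock group, held 2808550 to 9617985 counts. The third ΔEP mock column repeated the second in every gene and was counted once. *Zfp36* itself lay between 152 and 698 CPM (read counts over TMM-scaled library size, the unit of level used throughout) in the 9 fl/fl libraries and between 10.002 and 37.7 CPM in the 8 ΔEP libraries, without overlap. Replicate 1 of both mock groups stood apart from the other mock libraries. Its summed level of 7 keratinocyte markers was 3460 CPM in the fl/fl and 3506 CPM in the ΔEP library, against 16082 to 16733 CPM in the other mock libraries. Among these markers *Epcam* differed little, at 90.7, 114 and 123 CPM in fl/fl and at 98.8 and 93.3 CPM in ΔEP mock skin. Values without replicate 1 are given beside the mock comparisons.

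Most of the 10 genes lie apart, but the *Dlx* genes come in convergent pairs (GRCm38, annotation GENCODE M21). *Dlx1* (chr2:71528113-71533981, plus strand) and *Dlx2* (chr2:71543408-71546754, minus strand) are separated by 9426 bases. *Dlx3* (chr11:95120119-95125296, plus strand) and *Dlx4* (chr11:95140447-95146263, minus strand) are separated by 15150 bases. *Foxn1* (chr11:78357577-78386558) shares chromosome 11 with the latter pair, and *Gata3* (chr2:9857078-9890034) shares chromosome 2 with the former. *Msx1* (chr5:37820485-37824583) and *Cux1* (chr5:136248135-136567490) lie on chromosome 5, *Msx2* (chr13:53466884-53473074) on chromosome 13 and *Ovol1* (chr19:5549136-5560646) on chromosome 19, all on the minus strand. Exons of antisense transcripts cover 335 bases (6.2%) of the exons of *Dlx1*, 79 bases (2.4%) of *Dlx4*, 155 bases (3.9%) of *Gata3* and 394 bases (2.0%) of *Cux1*, and an opposite-strand pseudogene transcript covers 690 bases (19.8%) of *Ovol1*. Whether the counting used strand is not given in the sources used here, so reads from these stretches cannot be told apart.

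TTP binds AU-rich elements whose core heptamer, on the cDNA strand, is TATTTAT, so that heptamer was looked for in the longest annotated 3′-UTR of each gene. It occurred in 6 of the 10 genes, against 27.4% of 21062 genes with an annotated 3′-UTR. The UTRs searched ran from 773 bases (*Msx1*) to 8376 bases (*Cux1*), against a median of 1085 bases over all genes, and no heptamer was found in those of *Dlx1*, *Dlx4*, *Msx1* or *Msx2*. Each site is printed because the study compared mice with and without TTP, with the heptamer in capitals and 8 bases of flank on either side. The sequences are those of GENCODE M21 transcripts, 5′ to 3′ on the strand of the gene. A match is a run of letters and not evidence that the site is bound.
*Dlx3*, chr11:95125023-95125045: tggtttccTATTTATgtgaccct
*Dlx2*, chr2:71543477-71543499: ttgggggtTATTTATtatgaaag
*Foxn1*, chr11:78358264-78358286: gaaatctcTATTTATtctcccat
*Gata3*, chr2:9857320-9857342: tttgatggTATTTATtaaatagc
*Ovol1*, chr19:5550208-5550230: actggttcTATTTATcctggaca
*Cux1* site 1, chr5:136273743-136273765: ttttgtttTATTTATggtgtctg
*Cux1* site 2, chr5:136272962-136272984: tttttgctTATTTATaggtgctg
*Cux1* site 3, chr5:136271876-136271898: tattttctTATTTATtattatta

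*Cux1* held 3 heptamers, in the longest of the 10 UTRs, and the other 5 genes held 1 each. The longer run TTATTTATT occurred once each in the 3′-UTRs of *Dlx2* and *Cux1*, against 7.58% of genes.

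Because 7 of the 10 genes moved together across libraries (below), promoters of the set were also searched on both strands. The motifs were the homeodomain core TAATTA, which reads the same on both strands, the LEF/TCF cores CTTTGAA and CTTTGAT and the GATA core AGATAA. RefSeq promoters of 250 bases before and 50 bases after the start (GRCm38.p6) were at hand for 7 of the 10 genes. Those of *Dlx3*, *Dlx4* and *Ovol1* were not used here. The 7 promoters are not those of the 7 genes that moved together, since *Dlx3* and *Dlx4* are missing and *Foxn1* and *Gata3* are included. TAATTA was found once in the promoter of *Msx2* and once in that of *Foxn1*, against 5.29% of 32851 promoters. The other motifs were found in none of the 7, against 5.14%, 3.73% and 11.2% of all promoters. The 7 promoters were 61.0% to 70.0% G or C, against a median of 52.7%. The promoters that hold the homeodomain core are printed with it in capitals.
*Msx2*, chr13:53472731-53473030, minus strand: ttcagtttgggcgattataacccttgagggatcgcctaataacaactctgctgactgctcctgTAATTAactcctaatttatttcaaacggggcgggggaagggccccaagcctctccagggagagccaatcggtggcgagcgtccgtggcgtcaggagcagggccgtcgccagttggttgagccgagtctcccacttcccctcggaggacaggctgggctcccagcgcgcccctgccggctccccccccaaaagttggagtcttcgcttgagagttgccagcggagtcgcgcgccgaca
*Foxn1*, chr11:78386559-78386858, minus strand: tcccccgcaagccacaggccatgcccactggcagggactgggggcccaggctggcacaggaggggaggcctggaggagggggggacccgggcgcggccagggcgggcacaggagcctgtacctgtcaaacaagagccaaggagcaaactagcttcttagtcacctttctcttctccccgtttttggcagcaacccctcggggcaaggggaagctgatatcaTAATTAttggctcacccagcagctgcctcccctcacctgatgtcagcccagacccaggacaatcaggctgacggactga

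ΔEP tumors were compared with ΔEP treated skin to ask how the hair matrix factors changed in tumors that lack TTP, a contrast that the rule for choosing the genes did not name. Of the 10 genes, 7 fell by more than 2-fold at an adjusted p under 0.05 (edgeR quasi-likelihood test with Benjamini-Hochberg adjustment over 15289 genes) and none rose. *Dlx1*, *Dlx3*, *Dlx4*, *Msx1*, *Msx2*, *Cux1* and *Foxn1* fell, and *Dlx2*, *Gata3* and *Ovol1* did not pass the test. Over all genes, 15.5% fell by the same rule. The same 7 genes were lower in every tumor library than in any treated library, a pattern held by 24.3% of all genes. Of the 7, *Dlx1*, *Dlx4*, *Foxn1* and *Msx2* (4 genes) passed the filter on low counts only together with the treated libraries, so their calls and the count of 7 are given as a description, and *Dlx3*, *Msx1* and *Cux1* passed it in every tumor library as well. In a single fit of all 6 groups, 4 of the 10 genes were called, and 3509 over all genes in either direction. *Dlx1*, *Dlx4* and *Msx1* missed the threshold in that fit (adjusted p = 0.182, 0.129 and 0.288, edgeR).

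**Figure D1:**
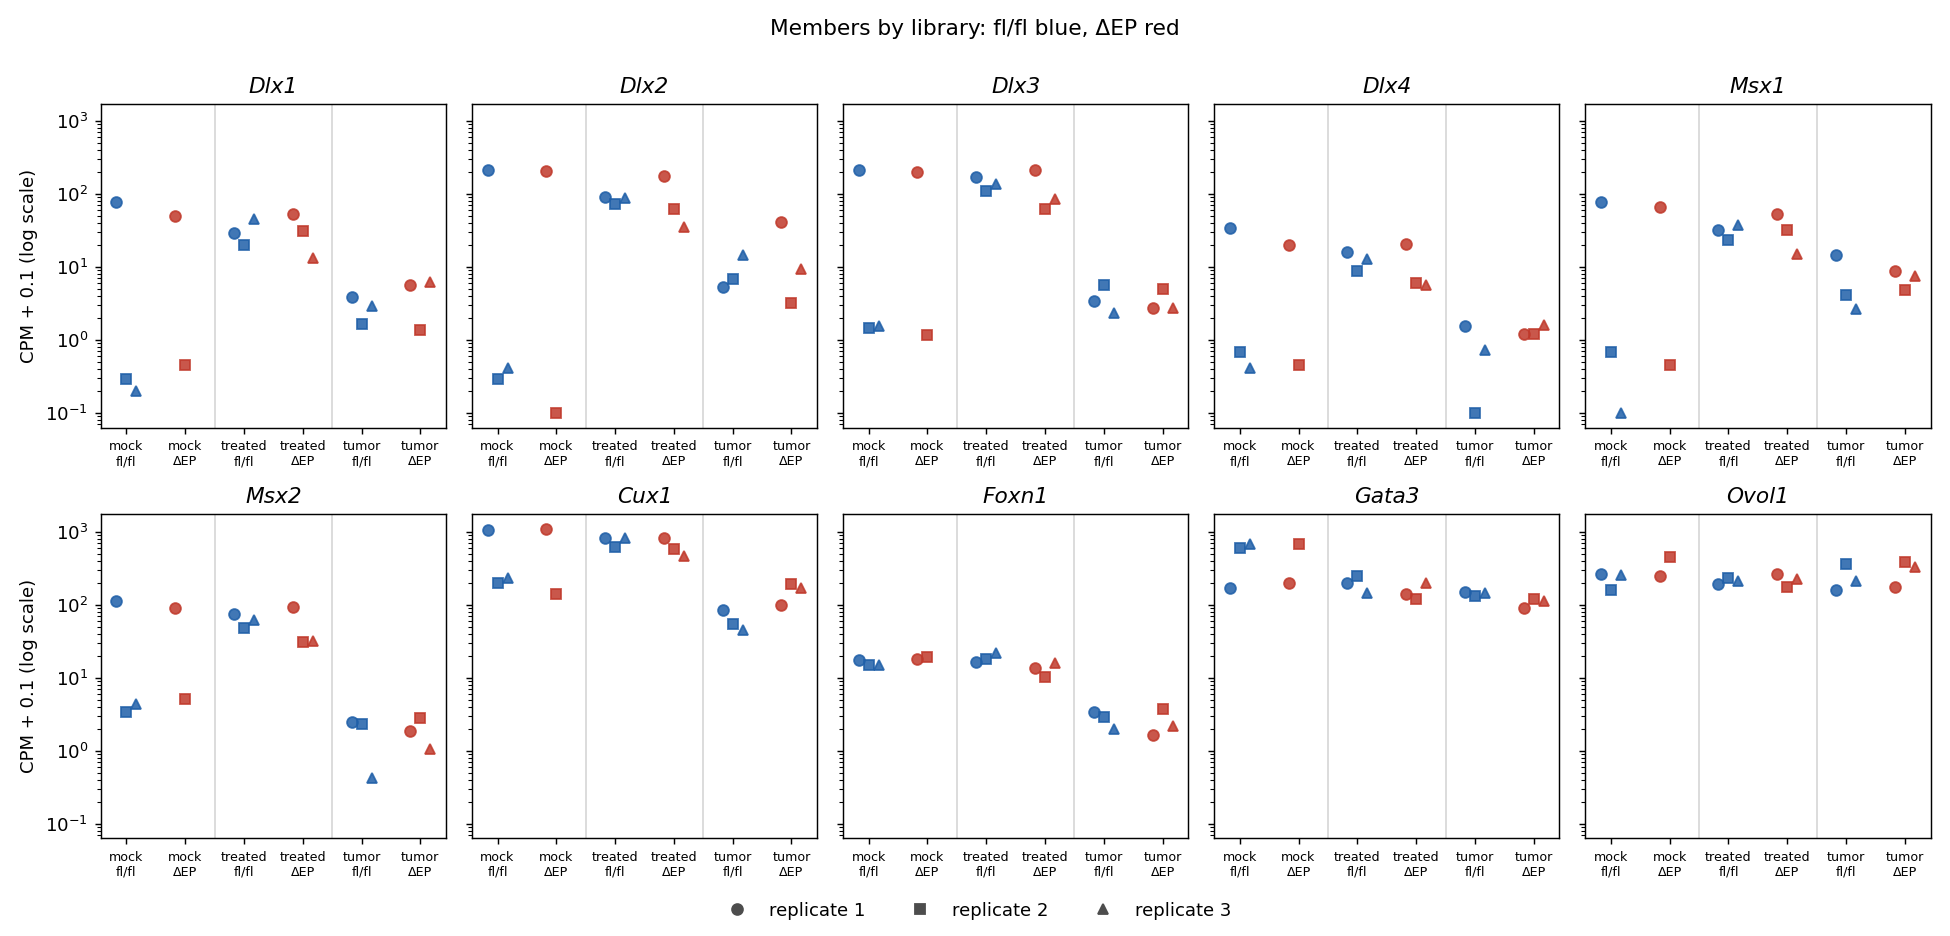
Level of each gene in each library (CPM plus 0.1, log axis), by stage and genotype, with fl/fl libraries in blue, ΔEP libraries in red and a marker shape for each replicate number. *Dlx3* sat between 2.23 and 5.49 CPM in the 6 tumor libraries and between 61.9 and 215 CPM in the 6 treated libraries, and the mock libraries split into high (replicate 1) and low for every *Dlx* and *Msx* gene and *Cux1*.

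*Dlx3* stood at 215, 61.9 and 85.2 CPM in the 3 ΔEP treated libraries and at 2.67, 4.90 and 2.64 CPM in the 3 ΔEP tumor libraries. Every tumor library was thus far below every treated library. The log2 fold change was -5.21 ± 0.55 (SE; adjusted p = 0.00052, edgeR quasi-likelihood test), and it lay between -5.54 and -4.46 when each library was left out in turn. In fl/fl mice, the samples in which the low level had been noticed, *Dlx3* stood at 170, 108 and 139 CPM in treated skin and at 3.33, 5.49 and 2.23 CPM in tumors, a log2 fold change of -5.16.

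*Dlx4*, the homeodomain gene next to it, stood at 20.7, 6.02 and 5.57 CPM in ΔEP treated skin and at 1.11, 1.09 and 1.51 CPM in ΔEP tumors, with 5 to 8 counts behind each tumor value, under the filter in all 3 tumor libraries. The groups did not overlap, and the log2 fold change was -3.17 ± 0.62 (SE; adjusted p = 0.00543, edgeR). In fl/fl libraries it stood at 15.7, 8.83 and 12.6 CPM in treated skin and at 1.43, 0 and 0.636 CPM in tumors, and the count of 0 allows up to 0.471 CPM, taking 3 counts as the limit.

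*Dlx1* and *Dlx2*, the other convergent pair, both had replicate 1 highest and replicate 3 lowest in ΔEP treated skin. Only *Dlx1* was called, and the difference between the genes of the pair was not tested. *Dlx1* stood at 53.4, 30.8 and 13.04 CPM in ΔEP treated skin and at 5.57, 1.27 and 6.04 CPM in ΔEP tumors, a log2 fold change of -3.02 ± 0.63 (SE; adjusted p = 0.00715, edgeR). Its tumor libraries held 7 to 32 counts, and its call is a description, since it passed the filter only together with treated skin. *Dlx2* stood at 177, 62.3 and 35.1 CPM in ΔEP treated skin and at 40.8, 3.09 and 9.25 CPM in ΔEP tumors, so 1 tumor library lay above 1 treated library. Its log2 fold change of -2.46 ± 0.88 (SE) gave an adjusted p of 0.0562 (edgeR). Without ΔEP tumor replicate 1, the library at 40.8 CPM, it was -3.95 (adjusted p = 0.0134), and without ΔEP treated replicate 1 it was -1.54 (adjusted p = 0.148). In fl/fl skin and tumors *Dlx2* did not overlap, at 90.1, 72.8 and 87.3 CPM against 5.24, 6.75 and 14.3 CPM.

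The *Msx* genes encode homeodomain repressors of the matrix and differed in how far they went down. *Msx2* stood at 93.3, 30.6 and 31.8 CPM in ΔEP treated skin and at 1.78, 2.72 and 0.944 CPM in ΔEP tumors, a log2 fold change of -4.90 ± 0.59 (SE; adjusted p = 0.000883, edgeR). With 5 to 15 counts in the tumors it passed the filter only together with treated skin, so its call is a description. *Msx1* stood at 52.7, 32.2 and 15.1 CPM in ΔEP treated skin and at 8.69, 4.72 and 7.36 CPM in ΔEP tumors, a log2 fold change of -2.37 ± 0.47 (SE; adjusted p = 0.00584, edgeR). Neither overlapped between the groups. In fl/fl mice *Msx2* stood at 73.6, 47.4 and 62.4 CPM in treated skin and at 2.38, 2.20 and 0.318 CPM in tumors. *Msx1* stood at 32.2, 23.0 and 37.9 CPM in fl/fl treated skin and at 14.3, 4.08 and 2.54 CPM in fl/fl tumors, a wider spread than in ΔEP tumors. The difference between the *Msx* genes was not tested.

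*Cux1* stood at 811, 578 and 467 CPM in ΔEP treated skin and at 98.1, 192 and 169 CPM in ΔEP tumors, a log2 fold change of -2.11 ± 0.31 (SE; adjusted p = 0.00182, edgeR). In fl/fl mice it stood at 829, 609 and 821 CPM in treated skin and at 83.8, 53.5 and 45.5 CPM in tumors. No library of either tumor group reached the level of a treated library.

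*Foxn1* stood at 13.5, 9.95 and 15.7 CPM in ΔEP treated skin and at 1.56, 3.63 and 2.08 CPM in ΔEP tumors, a log2 fold change of -2.47 ± 0.35 (SE; adjusted p = 0.00169, edgeR). The tumor libraries held 7 to 20 counts, and the call is a description, since the gene passed the filter only together with treated skin. In fl/fl mice it stood at 16.3, 18.1 and 21.4 CPM in treated skin and at 3.33, 2.82 and 1.91 CPM in tumors. Unlike the *Dlx* and *Msx* genes, it had a like level in all mock libraries (below).

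*Gata3* and *Ovol1* did not pass the test. *Gata3* stood at 140, 120 and 197 CPM in ΔEP treated skin and at 89.1, 121 and 114 CPM in ΔEP tumors, with a log2 fold change of -0.57 ± 0.20 (SE; adjusted p = 0.0556, edgeR). *Ovol1* stood at 261, 176 and 225 CPM in ΔEP treated skin and at 176, 379 and 326 CPM in ΔEP tumors, with a log2 fold change of 0.33 ± 0.28 (SE; adjusted p = 0.378, edgeR). Both genes overlapped between the groups, and both overlapped in fl/fl mice as well, at log2 fold changes of -0.47 and 0.17.

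**Figure D2:**
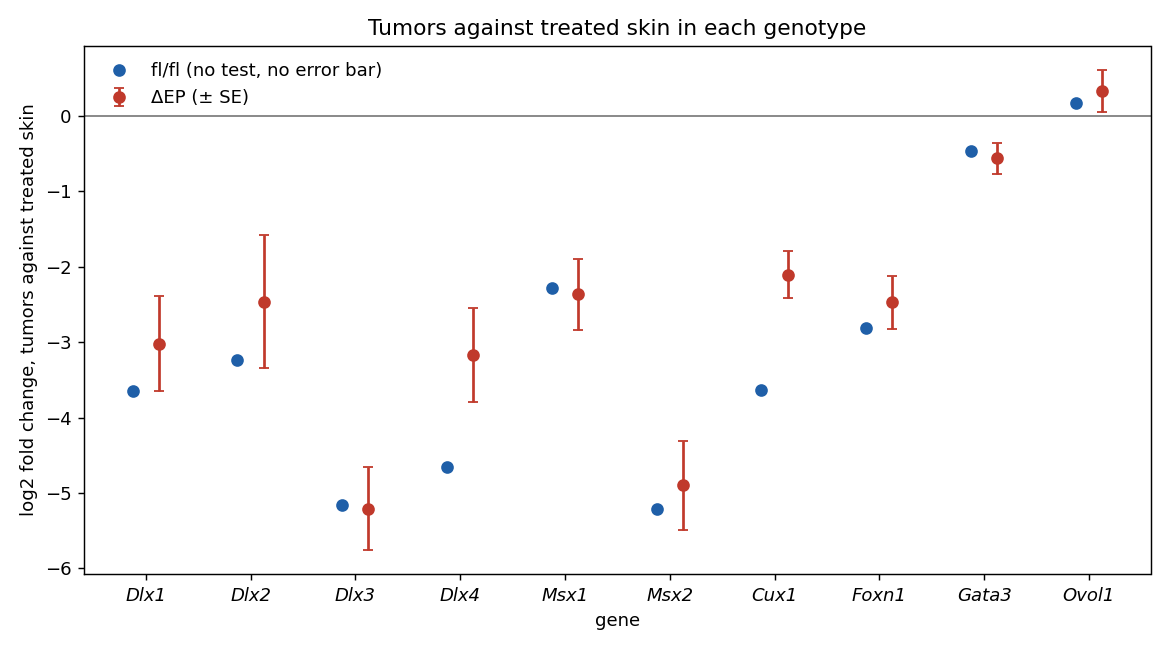
Log2 fold change of tumors against treated skin for each gene, in fl/fl mice (blue, a description without error bars) and in ΔEP mice (red, ± SE of the edgeR fit, 3 libraries a group). *Dlx3* (-5.16 and -5.21) and *Msx2* (-5.21 and -4.90) lie lowest, and *Gata3* (-0.47 and -0.57) and *Ovol1* (0.17 and 0.33) lie closest to no change. The values of *Msx2* and *Dlx4* rest on few tumor counts.

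In fl/fl tumors against fl/fl treated skin, the contrast from which the set arose, 8 of the 10 genes were lower in every tumor library than in any treated library, against 24.5% of all genes. The log2 fold changes of those 8 ran from -5.21 (*Msx2*) to -2.29 (*Msx1*), and *Dlx1*, *Dlx2*, *Dlx4*, *Cux1* and *Foxn1* stood at -3.65, -3.24, -4.66, -3.63 and -2.81. The fl/fl tumor libraries held 0 to 3 counts of *Dlx4* and 1 to 14 counts of *Msx2*, so the size of those falls is not firm. Nothing is read from the count of 8 genes, because the rule drew on this contrast.

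Summed levels of several marker lists differed in the tumor contrast. The summed level of 7 fibroblast markers was 482 to 955 CPM in ΔEP treated skin and 36.4 to 407 CPM in ΔEP tumors. That of 6 melanocyte markers was 61.5 to 373 CPM and 16.98 to 39.9 CPM, and that of 7 keratinocyte markers 3549 to 12753 CPM and 24538 to 25329 CPM. That of 7 myeloid and Langerhans cell markers overlapped, at 13.9 to 222 CPM and 67.7 to 102 CPM. Their part in the lower level of the hair matrix genes was not tested. In these bulk libraries, fewer cells that express a gene and less of its RNA per cell cannot be told apart. Which epidermal cells held the RNA of each gene was not tested.

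ΔEP tumors were also set against ΔEP mock skin, where 9 of the 10 genes passed the filter on low counts and *Dlx4* did not. *Foxn1*, *Gata3* and *Msx2* fell and none rose, 3 of 9, against 7.22% of all genes that fell by the same rule (edgeR, 15027 genes). The same 3 genes were lower in every tumor library than in either mock library, as were 23.6% of all genes. *Foxn1* (7 to 20 counts in the tumors) and *Msx2* (5 to 15 counts) passed the filter only together with the mock libraries. Their calls and the count of 3 are thus given as a description, and *Gata3* passed it in the tumors as well.

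*Foxn1* stood at 18.0 and 19.4 CPM in ΔEP mock skin, against 1.56 to 3.63 CPM in ΔEP tumors, a log2 fold change of -3.04 ± 0.42 (SE; adjusted p = 0.0113, edgeR). *Gata3* stood at 197 and 686 CPM in mock skin, a log2 fold change of -2.15 ± 0.49 (SE; adjusted p = 0.0361, edgeR). *Msx2* stood at 90.9 and 4.93 CPM in mock skin, and its log2 fold change was -4.83 ± 1.10 (SE; adjusted p = 0.0352, edgeR). Both mock libraries lay above the tumors for each of these genes, but for *Msx2* only by a small margin in replicate 2. No member was called when any ΔEP tumor library was left out. Calls over all genes, in either direction, then went from 2144 to 406, 101 and 216 without tumor replicates 1, 2 and 3.

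The other 6 genes had log2 fold changes from -4.99 ± 1.47 (*Dlx3*, adjusted p = 0.0646) to -0.37 ± 0.40 (*Ovol1*, adjusted p = 0.557), all by edgeR with SE. *Dlx1*, *Dlx2*, *Msx1* and *Cux1* stood at -2.67 ± 1.29, -2.65 ± 1.68, -2.41 ± 1.23 and -2.14 ± 0.75 (SE). These values, and that of *Msx2*, rested on mock replicate 1. Without it, *Msx2* was at -1.48 (adjusted p = 0.127) and no longer called, *Dlx3* was at 1.61 (adjusted p = 0.168), *Dlx1* at 3.44 (adjusted p = 0.0918) and *Cux1* at 0.05 (adjusted p = 0.927), and *Msx1* passed the test in the other direction, at 4.13 (adjusted p = 0.0109), in a fit with 1 mock library assumed to vary like the tumors. *Foxn1* and *Gata3* were still called, at -3.03 and -2.73. Without mock replicate 2, 8 of the 10 genes were called lower, while calls over all genes, in either direction, were 2144 with both mock libraries, 3585 without replicate 2 and 4573 without replicate 1.

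fl/fl tumors and fl/fl mock skin showed the same dependence. *Foxn1*, *Gata3*, *Msx2* and *Cux1*, 4 of the 10 genes, were lower in every tumor library than in any mock library, against 17.1% of all genes, at log2 fold changes of -2.55, -1.74, -4.65 and -3.04. *Dlx3* was at -4.28 with all 3 mock libraries and at 1.46 without mock replicate 1. *Dlx1*, *Dlx2* and *Msx1* went from -3.31, -3.04 and -1.997 to 4.09, 5.01 and 4.82 without that library, and *Ovol1* was at 0.08 and 0.24.

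In fl/fl mock skin, *Dlx3* stood at 213, 1.34 and 1.43 CPM in replicates 1, 2 and 3. In ΔEP mock skin it stood at 199 and 1.06 CPM in replicates 1 and 2. Replicate 1 was in the range of the treated libraries in both genotypes, and the other mock libraries were below every tumor library.

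The other *Dlx* genes and *Msx1* split in the same way. *Dlx2* stood at 215, 0.192 and 0.307 CPM in fl/fl mock skin and at 204 and 0 CPM in ΔEP mock skin, where the 0 allows up to 1.06 CPM, taking 3 counts as the limit. *Dlx1* stood at 76.4, 0.192 and 0.102 CPM and at 49.1 and 0.352 CPM. *Dlx4* stood at 33.9, 0.575 and 0.307 CPM and at 19.8 and 0.352 CPM. In every one of these the libraries other than replicate 1 held 3 counts or fewer. *Msx1* stood at 77.8, 0.575 and 0 CPM and at 66.6 and 0.352 CPM, the 0 allowing up to 0.307 CPM.

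*Msx2* and *Cux1* split less far. *Msx2* stood at 113, 3.26 and 4.20 CPM in fl/fl mock skin and at 90.9 and 4.93 CPM in ΔEP mock skin, so that replicate 1 was 26.9 times and 18.4 times the highest other mock library. *Cux1* stood at 1060, 195 and 234 CPM and at 1085 and 142 CPM, so that replicate 1 was 4.53 times and 7.67 times the highest other mock library.

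*Gata3* went the other way. It stood at 168, 606 and 670 CPM in fl/fl mock skin and at 197 and 686 CPM in ΔEP mock skin, so the libraries with low *Dlx3* had 3.60 times and 3.49 times the *Gata3* level of replicate 1, taking the lowest of them. *Foxn1* did not split, at 17.5, 14.8 and 14.96 CPM and at 18.0 and 19.4 CPM. *Ovol1* stood at 263, 160 and 257 CPM and at 248 and 445 CPM, with replicate 1 highest in fl/fl and lower in ΔEP.

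**Figure D3:**
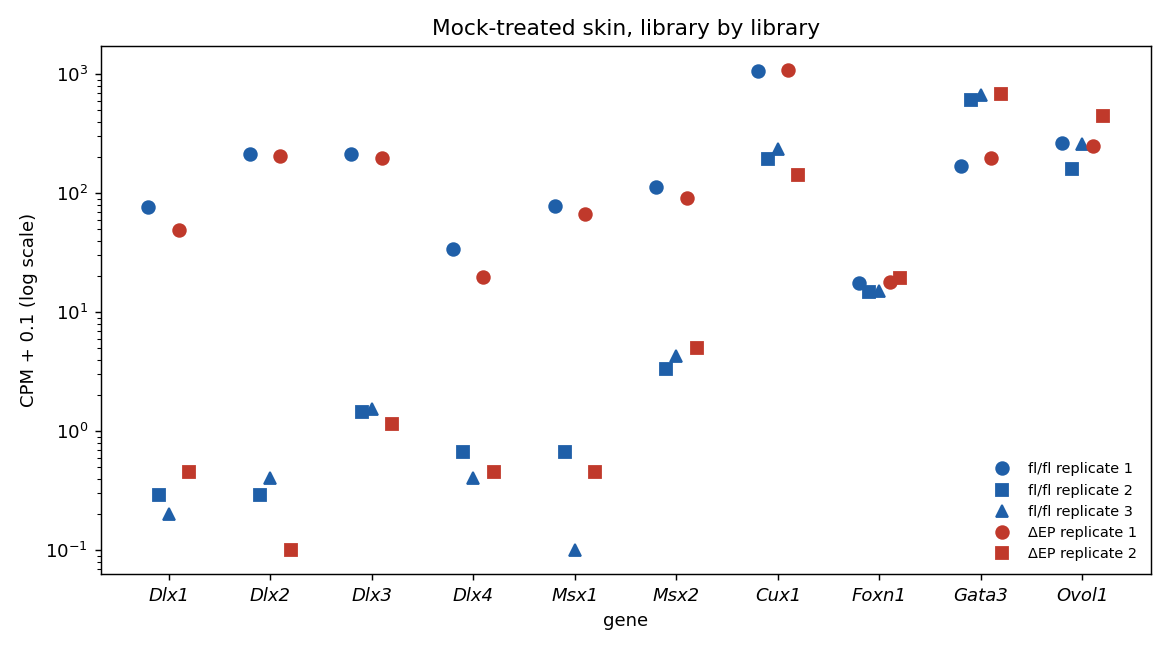
Level of each gene in the 5 mock libraries (CPM plus 0.1, log axis), fl/fl in blue and ΔEP in red, with circles for replicate 1. The circles lie far above the other markers for the *Dlx* and *Msx* genes and *Cux1*, among them for *Foxn1* and *Ovol1*, and below them for *Gata3*.

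Other markers parted the same libraries. The melanocyte list summed to 328 CPM in mock replicate 1 of fl/fl mice and to 279 CPM in that of ΔEP mice, against 50.3 to 119 CPM in the other mock libraries. The T cell list summed to 9.63 and 11.4 CPM against 48.2 to 65.9 CPM. Of its 8 genes, 5 in fl/fl and 6 in ΔEP mock skin held 3 counts or fewer in every library, so few genes carried that sum. The dermal papilla list summed to 25.5 and 21.7 CPM against 83.8 to 157 CPM, but its genes *Corin* and *Crabp1* went the other way. *Corin* was at 5.20, 1.53 and 0.512 CPM in fl/fl and at 1.85 and 0.352 CPM in ΔEP mock skin. *Crabp1* was at 3.10, 2.49 and 0.410 CPM and at 1.58 and 0.704 CPM. ΔEP treated replicate 1, which had the highest level of every *Dlx* and *Msx* gene among treated libraries, had a melanocyte sum of 373 CPM and a keratinocyte sum of 3549 CPM, near those of mock replicate 1. Hair cycle stage and day of collection are not in the labels, and the part of these marker differences in the levels of the hair matrix genes was not tested.

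Treated skin was compared with mock skin in each genotype to ask what treatment changed in skin beside tumors. No member passed the test in either genotype. In fl/fl mice 0 of 10 genes were called, as were 0% of 16601 genes (edgeR quasi-likelihood), while 913 genes had an unadjusted p under 0.05 and DESeq2 and the edgeR exact test called 118 and 104 genes, none of them a member. In ΔEP mice 0 of 10 were called, as were 0% of 15891 genes, while 763 genes had an unadjusted p under 0.05 and the same tools called 61 and 67 genes, again without a member.

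The log2 fold changes ran from -1.25 to 0.93 in fl/fl mice and from -1.59 to 0.34 in ΔEP mice. Standard errors of the 7 *Dlx*, *Msx* and *Cux1* values were 0.66 to 1.85 in fl/fl and 0.77 to 1.60 in ΔEP, so the precision was low. *Gata3*, named after its values were seen, had the smallest p in both, at -1.25 ± 0.50 (SE; adjusted p = 0.888, edgeR) in fl/fl and -1.59 ± 0.53 (SE; adjusted p = 0.907, edgeR) in ΔEP. *Foxn1*, which did not depend on mock replicate 1, was at 0.26 ± 0.21 (SE) in fl/fl and -0.57 ± 0.31 (SE) in ΔEP.

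Leaving out fl/fl mock replicate 1 changed the count of calls from 0 to 8 among the members and from 0 to 2587 over all genes. *Dlx1*, *Dlx2*, *Dlx3*, *Dlx4*, *Msx1*, *Msx2* and *Cux1* were then higher in treated than in mock skin, with *Dlx3* at 6.69 (adjusted p = 0.000196, edgeR) and *Cux1* at 1.87 (adjusted p = 0.00166), and *Gata3* was lower at -1.64 (adjusted p = 0.00383). Without replicate 1 of ΔEP mock skin, *Dlx3* was at 6.77 (adjusted p = 0.0866) and *Gata3* at -2.21 (adjusted p = 0.0755), and no member was called. That fit had 1 mock library, assumed to vary like the treated libraries.

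Genotypes were compared within each stage to ask whether loss of TTP in the epidermis moved these genes. In treated skin 0 of 10 genes were called, against 0.00616% of 16232 genes, which is *Zfp36* alone (edgeR). There 901 genes had an unadjusted p under 0.05, and DESeq2 and the edgeR exact test called 36 and 44 genes, none of them a member. Log2 fold changes ran from -0.55 to 0.12 with standard errors of 0.19 to 0.51. *Dlx3* was at -0.23 ± 0.43 (SE; adjusted p = 0.963, edgeR). *Foxn1*, with 9.95 to 15.7 CPM in ΔEP and 16.3 to 21.4 CPM in fl/fl treated skin, was at -0.55 ± 0.22 (SE; unadjusted p = 0.0374 and adjusted p = 0.897, edgeR).

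In mock skin 0 of 10 genes were called, as were 0% of 15920 genes (edgeR), with 253 genes at an unadjusted p under 0.05 and 3 and 2 genes called by DESeq2 and the exact test. No member was called by any of them. Standard errors of the *Dlx*, *Msx* and *Cux1* values were 1.12 to 2.90, and each group held both high and low libraries. *Foxn1* was at 0.29 ± 0.29 (SE; edgeR).

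The mock comparison rested on which replicate 1 was kept. *Dlx3* was at 0.43 with all libraries and at -6.10 without ΔEP mock replicate 1. *Cux1* was at 0.30 with all libraries, at -1.81 without ΔEP mock replicate 1 and at 1.63 without fl/fl mock replicate 1. Without replicate 1 of both groups, which left 1 ΔEP library, 5 of the genes could be fitted, and *Cux1* was at -0.48 (adjusted p = 0.408), *Msx2* at 0.51 (adjusted p = 0.729) and *Foxn1* at 0.50 (adjusted p = 0.533, edgeR). No member was called in any of these fits.

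The interaction of genotype with treatment, which asks whether treated skin differed from mock skin to an unequal degree in the genotypes, called 0 of 10 genes and 0% of 17694 genes (edgeR), with 257 genes at an unadjusted p under 0.05 and 0 called by DESeq2. *Foxn1*, named after its values were seen, had the smallest p among the members, at -0.84 ± 0.33 (SE; unadjusted p = 0.0275 and adjusted p = 0.99995, edgeR). *Dlx3* was at -0.71 with all libraries, at -6.47 without fl/fl mock replicate 1, at 5.83 without ΔEP mock replicate 1 and at 0.10 without both, and *Foxn1* was at -0.95, -0.89 and -0.99 in the fits that left libraries out, none of which called a member.

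Between genotypes in tumors, values are given without a test, because the fl/fl tumors drew attention to the set. *Cux1* was higher in every ΔEP tumor library (98.1, 192 and 169 CPM) than in any fl/fl tumor library (83.8, 53.5 and 45.5 CPM), as were 15.3% of genes, at a log2 fold change of 1.18. *Gata3* was lower in every ΔEP tumor library (89.1, 121 and 114 CPM) than in any fl/fl tumor library (150, 130 and 145 CPM), as were 3.61% of genes, at -0.55. *Dlx3* was at -0.30, with overlapping libraries. Nothing is read from these shares. The sebocyte list summed to 3805 and 6483 CPM in fl/fl tumor replicates 2 and 3, against 253 CPM in replicate 1 and 246 to 348 CPM in ΔEP tumors, and the keratinocyte list to 9087 to 9769 CPM in the same fl/fl libraries against 29691 CPM in replicate 1. The part of these differences in the *Cux1* and *Gata3* values was not tested.

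**Figure D4:**
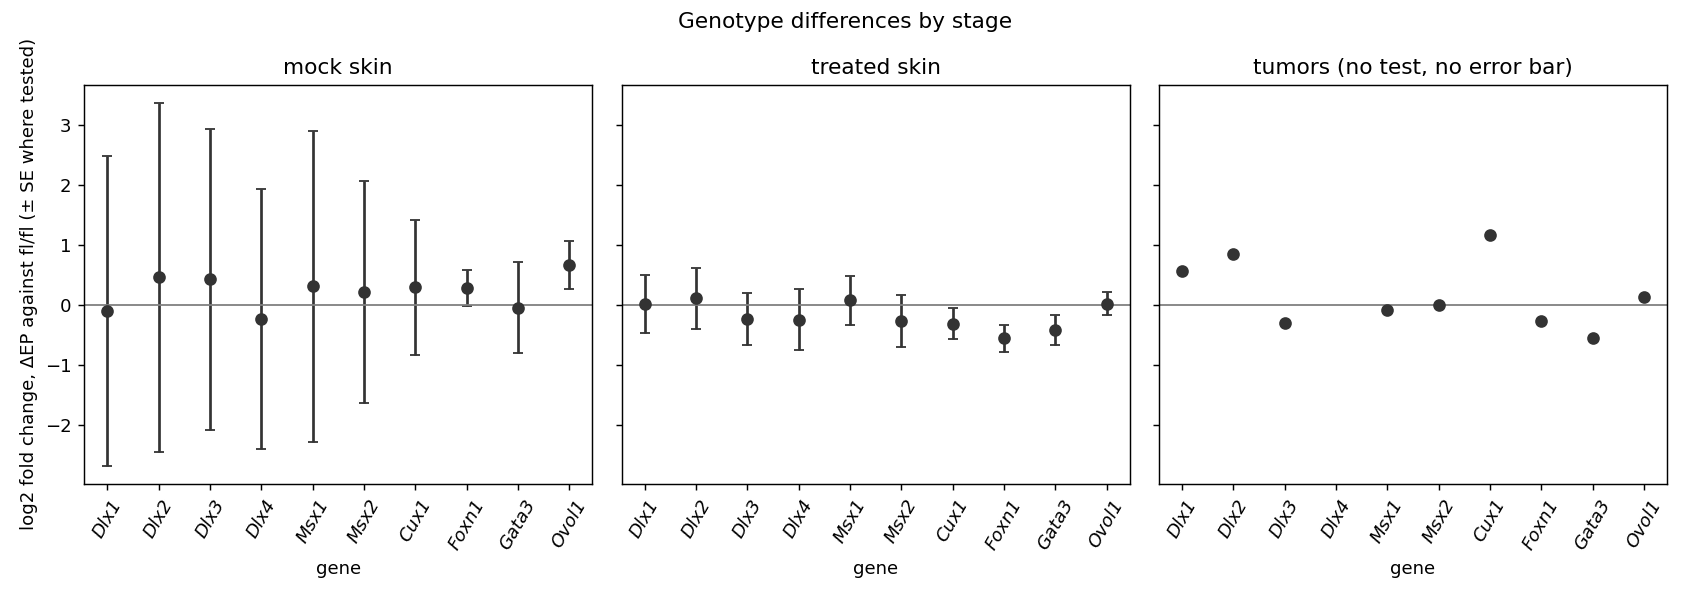
Log2 fold change of ΔEP against fl/fl for each gene in mock skin and treated skin (± SE of the edgeR fit) and in tumors (no test and no error bar). *Cux1* in tumors, at 1.18, lies farthest from 0 of the tumor values, and the mock values have the widest error bars. *Dlx4* did not pass the filter in tumors.

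Ordered by mean level, *Dlx3* stood at 139 ± 30.8 CPM (SD, n = 3) in fl/fl treated skin, 121 ± 82.5 CPM (n = 3) in ΔEP treated skin, 100 ± 140 CPM (n = 2) in ΔEP mock skin, 72.0 ± 122 CPM (n = 3) in fl/fl mock skin, 3.68 ± 1.66 CPM (n = 3) in fl/fl tumors and 3.41 ± 1.30 CPM (n = 3) in ΔEP tumors. Neighbors in this order did not differ beyond their spread, and the mock groups bridged skin and tumors only through replicate 1.

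Levels were compared between genes per kilobase of exon, as CPM per kb. In treated skin *Ovol1* was highest (60.8 ± 5.46 in fl/fl and 63.3 ± 12.3 in ΔEP, SD, n = 3), followed by *Dlx3* (53.3 ± 11.8 and 46.3 ± 31.6) and *Gata3* (49.4 ± 13.3 and 38.3 ± 9.998), whose spreads overlapped. *Dlx4* was lowest, at 3.78 ± 1.05 and 3.29 ± 2.63. *Cux1*, with 20024 bases of exon, was not the most abundant on this scale, at 37.6 ± 6.24 and 30.9 ± 8.78. In tumors *Ovol1* (69.0 ± 29.3 and 84.2 ± 30.2) and *Gata3* (35.6 ± 2.51 and 27.2 ± 4.21) led, and *Dlx3* was at 1.41 ± 0.64 and 1.31 ± 0.50.

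Across the 17 libraries, 7 of the genes followed one another. Pearson's r of log2 CPM (prior count 2) among *Dlx1*, *Dlx2*, *Dlx3*, *Dlx4*, *Msx1*, *Msx2* and *Cux1* was 0.63 to 0.97 over 21 pairs, with a median of 0.88, and that of *Gata3* with each of them was -0.64 to 0.03. *Foxn1* had r = 0.79 with *Msx2* and 0.78 with *Cux1*, within the range of the 21 pairs. With the *Dlx* genes and *Msx1* its r was 0.16 to 0.57. The neighbors *Dlx1* and *Dlx2* had r = 0.97, and *Dlx3* and *Dlx4* had r = 0.94. These values are descriptions, since the 17 libraries share groups, stages and mock libraries of a high and a low kind.

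Of 18114 other genes ranked by r with *Dlx3*, the 5 highest were *Crhr1* (0.986), *Fut4* (0.983), *Gm42449* (0.983), *Krt27* (0.980), a keratin of the inner root sheath, and *Gm37393* (0.979). Among the members, *Dlx4* ranked 41, *Msx2* 46, *Dlx1* 87, *Msx1* 240, *Dlx2* 248 and *Cux1* 253. *Foxn1* ranked 2138 (r = 0.57), *Ovol1* 11259 (r = -0.16) and *Gata3* 13052 (r = -0.30).

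Other genes of the hair program were read from lists chosen with earlier results of these data known, and counts of calls are for ΔEP tumors against ΔEP treated skin. Of 24 other hair follicle regulators, all 24 were tested, 10 fell and 2 rose, against 15.5% of all genes that fell and 10.5% that rose by the same rule, with a median log2 fold change of -0.93. *Lef1*, a Wnt effector, went from 75.6 to 163 CPM in treated skin to 0.223 to 1.51 CPM in tumors. *Lhx2*, a factor of follicle progenitors, went from 38.6 to 55.2 CPM to 0.363 to 0.446 CPM. *Shh*, the matrix signal, went from 10.6 to 23.7 CPM to 0 to 0.182 CPM. No fold change is given for these genes, whose tumor libraries held few counts. Of the 24 regulators, 2 held 3 counts or fewer in every tumor library and passed the filter only through treated skin. Others with slightly more counts, *Lef1* among them, also passed it only through treated skin. The count of 10 is thus a description. *Prdm1* rose, from 26.1 to 31.8 CPM to 132 to 218 CPM, a log2 fold change of 2.53 ± 0.23 (SE).

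Of 29 products of hair differentiation in the table, 18 were tested, 13 fell and 1 rose, against 15.5% and 10.5% of all genes. The median log2 fold change was -4.92, or -3.87 with the 6 genes at 3 counts or fewer in every tumor library put at 3 counts per library. Those 6 genes passed the filter on low counts only through treated skin, and so did others with slightly more counts, *Krt25* and *Krt71* among them. The count of 13 is thus given as a description. The inner root sheath keratins *Krt25* and *Krt71* went from 128 to 377 CPM and from 73.0 to 210 CPM in treated skin to 0.223 to 0.908 CPM and 0.182 to 0.755 CPM in tumors. The desmosomal cadherin *Dsc2*, which is not particular to hair, rose from 4.81 to 10.3 CPM to 131 to 147 CPM.

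Genes of epidermal differentiation moved in both directions. Of 20 genes, 17 were tested, 8 fell and 3 rose, against 15.5% and 10.5% of all genes, with a median log2 fold change of -0.89. *Grhl3*, a factor of epidermal barrier formation, rose by 2.02 ± 0.30 on the log2 scale (SE), *Klf4* rose by 1.48 ± 0.28, and the keratin *Krt77* was at -5.70 ± 0.73. Of 12 paralogs of the members, 3 passed the filter and *Gata6* fell, from 3.03 to 16.7 CPM in treated skin to 0 to 0.446 CPM in tumors. *Gata6* passed the filter only through treated skin.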

How the data were processed

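Raw counts per gene were deposited by the authors as 1 table of all libraries. Per the labels, the submitters' processing notes name Trimmomatic 0.36, STAR 2.5.3, HTSeq 0.9.1 and DESeq2, with the mm10 build. The annotation release, the use of strand and the treatment of duplicates are not given in the sources used here. No column was left out other than the copy of a ΔEP mock library.

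Counts were scaled by TMM and tested with edgeR 4.0.16 (R 4.3.3, quasi-likelihood, filterByExpr), fitting the groups compared, with Benjamini-Hochberg adjustment over all genes tested. A call needed an adjusted p under 0.05 and a fold over 2. The SE was the log2 fold change divided by the root of F. Nothing in the labels says that replicates were separate mice, so p-values measure the spread between these samples, which may be technical. The members and lists were chosen with earlier results of these data known. All 10 members were named in every comparison with calls. In comparisons without member calls, genes were named for their p after values were seen. A test between genotypes in tumors was planned and run, and then withdrawn because its fl/fl arm had drawn attention to the set. The fit was tested on simulated data. DESeq2 1.42.0, the edgeR exact test, a single fit of all groups, no low-count filter, a replicate block and leaving out each library were alternatives, and leaving out replicate 1 of both mock groups was added after seeing the data. Total counts of 2808550 to 9617985 set the precision of low genes, and limits from 3 counts cover counting error only.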

Additional observations from a re-analysis of the deposited data

How the results depend on the processing

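ΔEP tumors against ΔEP treated skin kept the direction of all 10 genes under the 13 alternatives tried. With 1 library left out, 7 to 8 of the 10 genes were called, and 2823 to 4773 over all genes in either direction. In a single fit of all groups, 4 of the 10 were called, and 3509 over all genes. There *Dlx1*, *Dlx4* and *Msx1* missed the threshold (adjusted p = 0.182, 0.129 and 0.288, edgeR). These counts are a description, since *Dlx1*, *Dlx4*, *Foxn1* and *Msx2* passed the filter of the reported fit only together with the treated libraries. ΔEP tumors against ΔEP mock skin was less stable. The count of genes called was 3 as reported and 9 with no low-count filter. It was 5 with the edgeR exact test and 5 with DESeq2, both adding *Dlx3* and *Cux1*. Calls over all genes moved as well, at 2144, 4154, 3361 and 2805 in that order. Leaving out any 1 ΔEP tumor library left 0 of the 10 genes called and 101 to 406 over all genes.

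Leaving out 1 library at a time, the log2 fold changes of that contrast ran from -3.56 to 3.44 for *Dlx1*, from -4.16 to 9.31 for *Dlx2* (the latter fitted against a library at 0 and so no bound), from -5.88 to 1.61 for *Dlx3*, from -3.31 to 4.13 for *Msx1*, from -2.87 to 0.0487 for *Cux1* and from -0.67 to 0.20 for *Ovol1*. *Dlx3* ran from -0.97 to 0.0889 between genotypes in treated skin, being 0.01 without ΔEP treated replicate 3. In tumors, where no test is given, it ran from -0.62 to 0.14. In fl/fl treated against mock skin, 0 to 8 genes were called when 1 library was left out. In ΔEP treated against mock skin, 1 gene (*Gata3*, adjusted p = 0.0434) was called with no low-count filter. Signs changed in 37 of 135 member values under the alternatives for genotypes in mock skin and in 33 of 190 for the interaction, with no member called. The causes were not tested.

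Replicate numbers were not taken as pairs, since the labels tie them to no animal or batch and no comparison with 3 pairs had every correlation above 0.1 (0.0897, 0.177 and -0.0297 for ΔEP tumors and treated skin). Mock libraries of the same number did correlate across genotypes, at 0.785 and 0.568, over 2 pairs. With the replicate block, 8 of the 10 genes were called in ΔEP tumors against treated skin, where calls over all genes went from 3973 to 3879. Against mock skin 1 gene (*Foxn1*) was called, and calls over all genes went from 2144 to 938. Between genotypes in mock skin the block moved calls over all genes from 0 to 110, and in ΔEP treated against mock skin from 0 to 43, with no member called. The exact test was not run for the interaction, which has more than 2 groups. Libraries with 3 counts or fewer of a *Dlx* or *Msx1* gene give no firm level for it.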
